A study of Mus musculus with 12 samples.

Results

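The clustered histone genes were followed through the H3K27ac table of 4T1 cells by taking every interval whose assigned gene name begins with Hist1h, Hist2h, Hist3h or Hist4h. The rule gave 51 of 126464 intervals, of which 46 carried a Hist1 name, 2 a Hist2 name, 2 a Hist3 name and 1 a Hist4 name. H3K27ac is the acetyl mark on a lysine of histone H3 that sits at active promoters and enhancers, and 4T1 is a mouse mammary carcinoma cell line. The study asked whether supply of acetyl-CoA changes this mark, and its chromatin immunoprecipitation (ChIP) libraries cover 6 treatments of 48 h with 2 libraries each. Cells received no inhibitor (vehicle), etomoxir, or etomoxir together with SB204990, and each of these backgrounds was studied without and with added acetate. Every inhibitor was used at 50 µM and acetate at 5 mM. Acetate can be turned into acetyl-CoA, etomoxir blocks the CPT1 step of fatty acid oxidation, and SB204990 inhibits ATP citrate lyase. All 12 libraries received 7.5% human chromatin as a spike-in, and all come from a single cell line. A value is the number of mouse reads in an interval multiplied by the spike-in factor of its library, here called spike-scaled reads.

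The genes of these clusters encode the histones laid down behind the replication fork: the core histones H2A, H2B, H3 and H4 of the nucleosome and the linker histone H1. They mostly lack introns, lie close together in divergent pairs and short runs, and are transcribed mainly in S phase at a nuclear body built around NPAT. Their transcripts end in a stem-loop bound by SLBP in place of a poly(A) tail. Dividing tumour cells need them in every cycle, and several copies encode the same protein.

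Promoter sequences show what the members share beyond a name. Of 70 genes with these names in the GENCODE annotation, 61 matched a RefSeq promoter (GRCm38.p6, 250 bases before to 50 after the start). The following 4 motifs were searched on both strands, none of which holds another: TATAAA (the TATA box), CCAAT (bound by NF-Y), ATTTGCAT (the octamer bound by OCT1) and GGTCCG (the core of the H4 element bound by HINFP). CCAAT was in 52 of the 61 promoters (85.2%) against 37.4% of all 32851 mouse promoters, and TATAAA was in 34 (55.7%) against 13.6%. The octamer was in 13 (21.3%) against 1.74%, in 7 of 18 H2A and 6 of 16 H2B promoters and in 0 of 27 promoters of the other types. GGTCCG was in 11 of 12 H4 promoters (91.7%), in 1 of 16 H2B and in 1 of 10 H3 promoters, against 8.25% of all promoters. CCAAT was the reverse, in all 49 matched H1, H2A, H2B and H3 promoters and in 3 of 12 H4 promoters. The promoters are not independent, since windows of divergent pairs overlap, as those of Hist1h2ah and Hist1h2bk do. With both strands searched, the same octamer can be counted for an H2A and an H2B gene. Identical copies, such as those of Hist1h2bq and Hist1h2br, are each counted too. A match is a description of the letters and no evidence of binding. The sequences below were chosen to show promoters of H1, H2A, H3 and H4 genes in strong intervals, an H2B promoter whose exact copy lies in another interval, and a testis H2B gene with no interval. Each is printed 5′ to 3′ on the gene's strand, with the motifs or their reverse complements in capitals.
Hist1h1c (linker H1, chr13:23738557-23738856, plus strand): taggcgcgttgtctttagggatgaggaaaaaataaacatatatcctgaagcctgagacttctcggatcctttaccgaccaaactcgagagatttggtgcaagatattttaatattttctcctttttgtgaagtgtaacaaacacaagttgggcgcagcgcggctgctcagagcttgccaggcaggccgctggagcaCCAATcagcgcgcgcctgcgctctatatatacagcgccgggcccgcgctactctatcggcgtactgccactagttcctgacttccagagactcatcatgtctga
Hist1h2ac (H2A, chr13:23683910-23684209, minus strand): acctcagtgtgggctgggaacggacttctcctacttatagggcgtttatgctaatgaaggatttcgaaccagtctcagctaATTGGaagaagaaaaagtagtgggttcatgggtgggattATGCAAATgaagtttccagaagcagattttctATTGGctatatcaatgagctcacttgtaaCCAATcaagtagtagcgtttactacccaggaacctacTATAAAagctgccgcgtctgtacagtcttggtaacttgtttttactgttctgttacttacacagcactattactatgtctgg
Hist2h2ac (H2A, chr3:96220831-96221130, minus strand): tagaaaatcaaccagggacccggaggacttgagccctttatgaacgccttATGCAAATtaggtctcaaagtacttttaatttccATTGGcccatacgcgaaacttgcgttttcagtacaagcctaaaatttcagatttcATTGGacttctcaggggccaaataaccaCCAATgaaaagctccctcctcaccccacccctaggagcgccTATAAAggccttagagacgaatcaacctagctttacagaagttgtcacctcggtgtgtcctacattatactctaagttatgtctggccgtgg
Hist1h3d (H3, chr13:23575513-23575812, plus strand): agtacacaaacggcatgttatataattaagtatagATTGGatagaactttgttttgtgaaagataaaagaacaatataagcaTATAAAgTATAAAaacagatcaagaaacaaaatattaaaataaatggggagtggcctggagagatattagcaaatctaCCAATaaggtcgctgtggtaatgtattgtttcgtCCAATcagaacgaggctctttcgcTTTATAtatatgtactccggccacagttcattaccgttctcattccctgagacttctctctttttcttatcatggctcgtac
Hist1h4i (H4, chr13:22041313-22041612, minus strand): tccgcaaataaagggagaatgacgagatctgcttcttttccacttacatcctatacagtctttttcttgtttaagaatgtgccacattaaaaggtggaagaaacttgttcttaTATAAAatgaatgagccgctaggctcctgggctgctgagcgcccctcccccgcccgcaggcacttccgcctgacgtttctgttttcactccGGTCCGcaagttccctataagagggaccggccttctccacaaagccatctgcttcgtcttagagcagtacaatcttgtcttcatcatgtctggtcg
Hist1h2bq (H2B, chr13:21810150-21810449, minus strand): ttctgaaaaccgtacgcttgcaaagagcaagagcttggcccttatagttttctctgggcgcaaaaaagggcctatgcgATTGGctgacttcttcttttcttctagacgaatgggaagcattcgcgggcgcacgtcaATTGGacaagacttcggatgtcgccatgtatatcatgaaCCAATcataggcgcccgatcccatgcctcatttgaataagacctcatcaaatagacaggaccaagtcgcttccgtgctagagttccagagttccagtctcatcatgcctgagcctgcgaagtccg
Hist1h2ba (testis H2B, chr13:23934107-23934406, minus strand): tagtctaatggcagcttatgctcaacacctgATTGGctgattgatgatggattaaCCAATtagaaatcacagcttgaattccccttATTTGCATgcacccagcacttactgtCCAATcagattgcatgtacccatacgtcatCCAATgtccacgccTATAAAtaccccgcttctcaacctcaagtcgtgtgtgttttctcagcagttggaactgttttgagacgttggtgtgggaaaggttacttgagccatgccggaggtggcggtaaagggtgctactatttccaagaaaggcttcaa
The Hist1h2br promoter (chr13:21833493-21833792, plus strand) is identical to that of Hist1h2bq at 300 of 300 bases.

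Most of the members' signal lay in intervals that hold a histone start site. Start sites of 65 of the 70 genes fell inside 15 member intervals, and these 15 carried 96.2% of the members' spike-scaled reads. By type, the start sites inside members were 6 of 6 for H1, 18 of 20 for H2A, 17 of 19 for H2B, 12 of 12 for H3 and 12 of 13 for H4. The other 36 members held no histone start site, and their median length was 612 bp against 11428 bp. They lay in or around the clusters, between as well as beside start-site intervals. They are here called flanks and named by their assigned gene. Of the members, 10 are annotated as intron, all without a start site. Mean signal over the 12 libraries had a median of 57.4 reads per kb in the 15 start-site intervals, 13.1 in the other 36 members and 16.4 in all intervals. Of the 5 start sites outside members, that of Hist4h4 lay in an interval assigned to the variant histone gene H2afj. The start of Hist3h2ba lay 158 bp before its interval. The other 3 were in no interval, and they are the pseudogene Hist1h2al and the testis pair Hist1h2aa and Hist1h2ba.

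**Figure D1:**
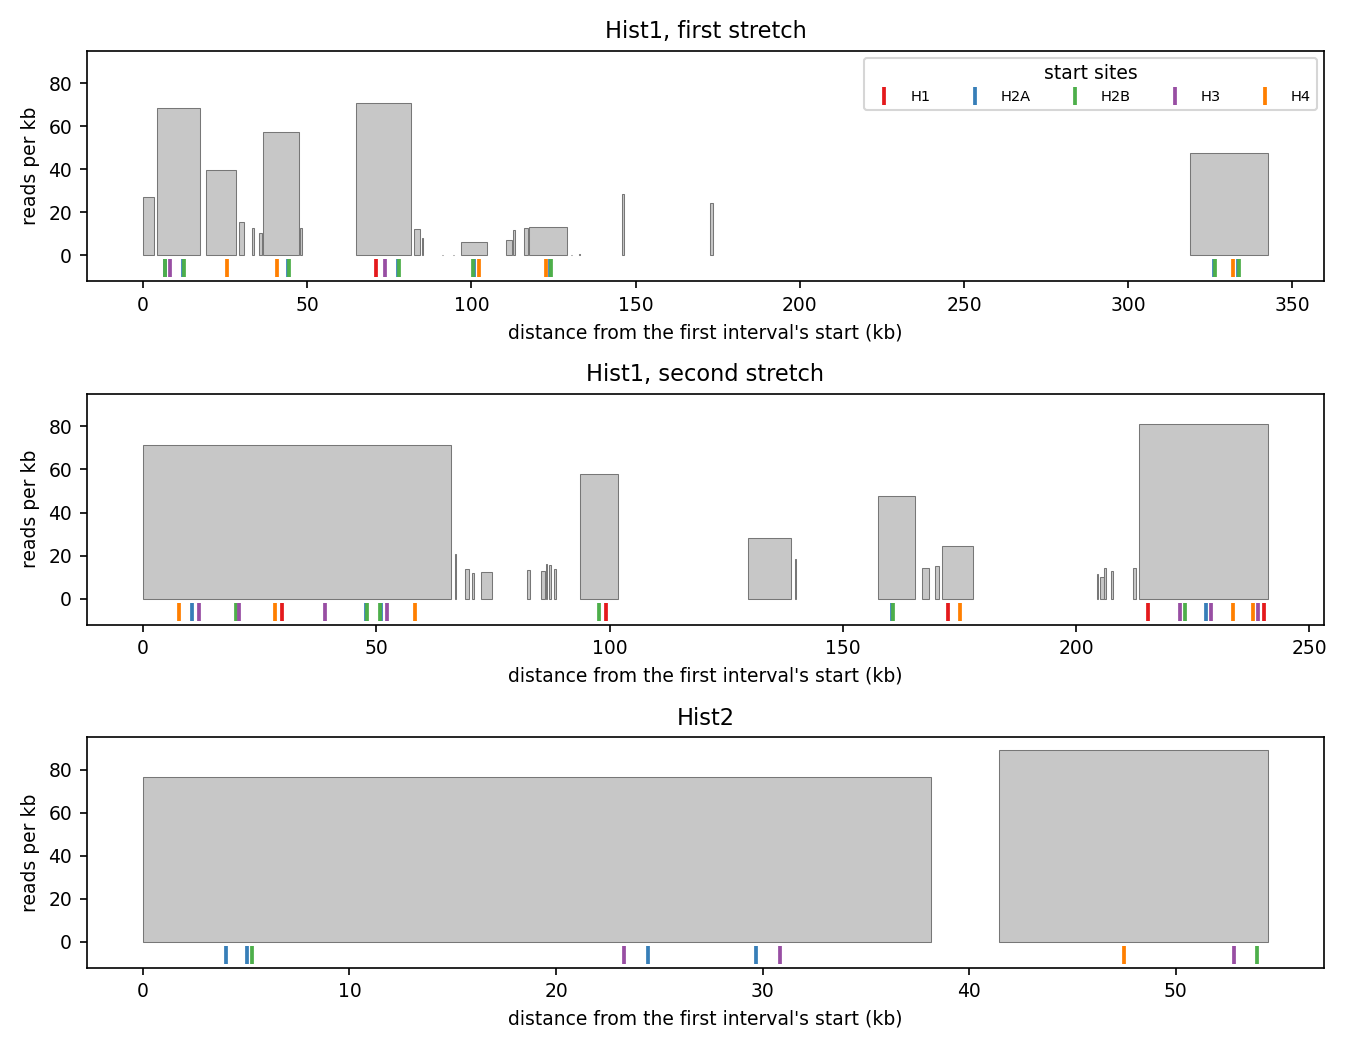
Mean spike-scaled reads per kb of each member interval (bar width is the interval's length) along the first and second stretch of Hist1 and along Hist2, against distance in kb from the first interval's start, with ticks at histone start sites coloured by type. The tall bars stand over the start sites, and 2 start-site intervals near 100 and 125 kb of the first stretch are low.

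The broadest member was the Hist1h1d interval (chr13:23523365-23589440), which ran over 66076 bp and 14 start sites, among them the linker gene Hist1h1d and genes of all 4 core types. It averaged 4726 spike-scaled reads. Next in Hist1 came the Hist1h2ab interval (chr13:23736781-23764489), with 9 start sites and a mean of 2249. The Hist2 cluster was held in the Hist2h3c2 interval (chr3:96215833-96253973), with 7 start sites and a mean of 2927, and the Hist2h4 interval (chr3:96257259-96270306), with 3 and a mean of 1163. Per length the Hist2h4 interval was the highest member at 89.2 reads per kb. Of all 126464 intervals 1707 (1.35%) were 20 kb or longer, and 4 of the 51 members were. The 8 other Hist1 intervals among the 10 with the highest means were those of Hist1h3i (1194), Hist1h4i (1134), Hist1h2bm (895), Hist1h4k (622), Hist1h2be (482), Hist1h2bc (379), Hist1h4j (362) and Hist1h2ac (260). The last holds no start site and lies downstream of Hist1h2ac, a minus-strand gene, at chr13:23653004-23662176. In the text an interval named for a gene is the one with a start site unless a position is given.

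Near-identical copies limit what some values mean. Windows of 60 bases, the read length, were searched in the 21 mouse chromosomes, and 13 of the 15 start-site intervals had between 1.72% and 11.1% of their windows in more than 1 place. The exceptions were the Hist1h2ao interval (chr13:21806248-21814416), with 95.3% repeated windows, and the Hist1h2ap interval (chr13:21827141-21838568), with 66.7%. They also had the lowest signal per length of the 15, at 6.33 and 13.0 reads per kb, against 24.4 to 89.2 in the other 13. All windows were repeated in 4 flanks named for Hist1h2bq and Hist1h2br, and these 4 had mean values of 0, 0, 0.0833 and 0.233. A Hist1h2bp flank of 349 bp with a mean of 2.79 had 77.2% repeated windows. Reads that match several copies equally cannot be given to a single copy, so the levels of these 7 intervals and of the genes in them are uncertain. How the study's workflow placed such reads is not given in the sources used here, and the part of repeated sequence in the low values was not tested.

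**Figure D2:**
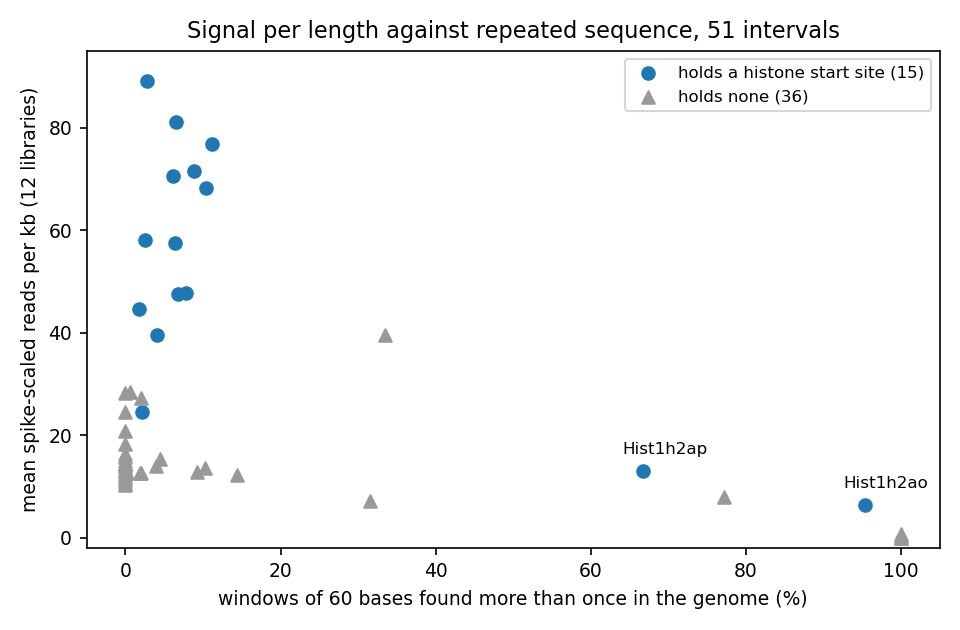
Mean spike-scaled reads per kb over 12 libraries (vertical) against the percentage of 60-base windows that occur more than once in the mouse genome (horizontal), for the 15 members with a histone start site (circles) and the 36 without (triangles). The Hist1h2ao and Hist1h2ap intervals stand apart at 95.3% and 66.7% with 6.33 and 13.0 reads per kb.

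The libraries come in 2 sets of 6 with their own name suffix, 1 of each treatment per set. What set 1 and set 2 stand for is not given in the labels, so p-values measure the spread between these libraries, which may be technical. Each set has exactly 1 library with a spike-in factor of 1, so the sets may be on different scales. Ratios within a set are free of such a difference, whereas group means with their SD, and the limma test, which has no term for the set, hold it in their spread. Reads in intervals ran from 7179165 to 16676442 per library. The lowest was etomoxir + SB204990 of set 2, which stood apart from its replicate in the members. Members took 0.142% of its reads (95% Wilson interval 0.139 to 0.144%) and 0.247% (0.245 to 0.250%) in set 1, intervals that cover counting error only. Vehicle and acetate also differed between set 1 and set 2, at 0.247% and 0.160% for vehicle and 0.227% and 0.153% for acetate. Epithelial markers had strong intervals, with Krt8 at 2641 to 5744 and Cdh1 at 1556 to 4164 spike-scaled reads, and no interval was assigned to Krt18 or Krt7. Markers of other cell types also had intervals, 4 of 5 leukocyte, 5 of 5 fibroblast and 3 of 3 endothelial genes. Cd68 reached 1427 to 3496 spike-scaled reads, near the range of Cdh1, Pecam1 382 to 1081, Dcn 244 to 608 and Itgam 119 to 337. Ptprc had 32.3 to 81.6, Cd3e 2.79 to 32, Pdgfra 30.7 to 91, and no interval was assigned to Lyz2. Cdh5 had 70.5 to 178, Kdr 13.9 to 52.6, Col6a3 65.3 to 186, Lum 25.1 to 84 and Thy1 9.96 to 46.1. Their part in the members' values was not tested.

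Summed over Hist1, signal was higher with acetate than without it in all 6 same-set pairs. The Hist1 sum was 12824 spike-scaled reads in set 1 and 8755 in set 2 for vehicle, and 17446 and 11021 for acetate. It was 13725 and 14468 for etomoxir, and 15761 and 17569 for etomoxir + acetate. It was 9952 and 7493 for etomoxir + SB204990, and 11081 and 16716 with acetate added. The acetate ratios within a set ran from 1.11 to 2.23, and both sets had their lowest sum in the group with both inhibitors and no acetate. Spike-scaled values are not corrected for depth. The ratio of 2.23 was that of set 2 with both inhibitors, from 7179165 reads in intervals without acetate and 12990407 with it. As a share of reads the Hist1 ratio of that pair was 1.42. Taken across sets as deposited, the vehicle and acetate values overlapped, and those with and without acetate did not overlap in the other two backgrounds. As group means the sums were 10789 ± 2877 (SD, n = 2) for vehicle, 14234 ± 4543 for acetate, 14096 ± 525 for etomoxir, 16665 ± 1279 for etomoxir + acetate, 8723 ± 1739 for etomoxir + SB204990 and 13898 ± 3985 with acetate. Hist2 sums were higher with acetate in 6 of 6 pairs, by ratios of 1.19 to 2.10, as were Hist3 sums, by 1.28 to 1.89. The Hist4h4 flank held 1 to 12 reads per library and was too low to test.

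The share of reads mostly went the other way. Hist1 intervals took 0.188% and 0.114% of reads in intervals for vehicle (set 1 and set 2) and 0.173% and 0.110% for acetate. They took 0.171% and 0.184% for etomoxir and 0.115% and 0.136% with acetate added. With both inhibitors the shares were 0.186% and 0.104%, and 0.129% and 0.148% with acetate. The share was lower with acetate in 5 of 6 same-set pairs and higher in the pair of set 2 with both inhibitors. In those 5 pairs scaled signal was higher with acetate while its part of all reads in intervals was lower.

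**Figure D3:**
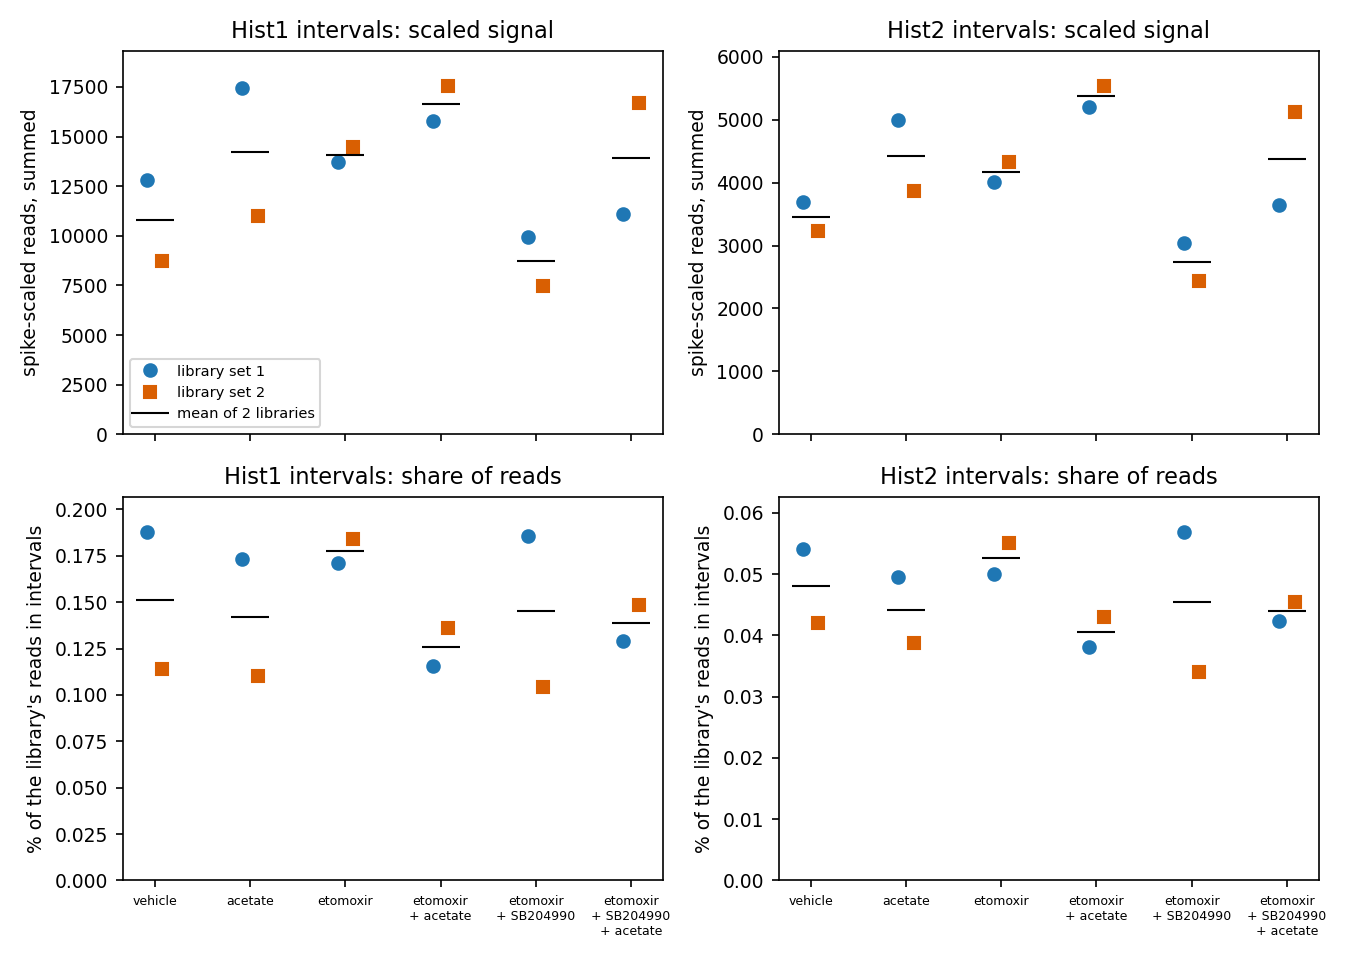
Sum of spike-scaled reads (top) and percentage of the library's reads in intervals (bottom) for the Hist1 and Hist2 intervals in each of 12 libraries, by treatment, with circles for set 1, squares for set 2 and a bar for their mean. Sums are higher with acetate in every same-set pair, and shares are lower in 5 of 6.

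Tests were run on log2(value + 1) with limma over 63903 intervals whose mean reached 10, of which 28 were members, all 15 start-site intervals and 13 flanks. The lowest tested member was a Hist1h2be flank (chr13:23608704-23609588) at 11.4, and the highest untested was a Hist1h4k flank (chr13:21744773-21745662) at 9.47. Calls for acetate without an inhibitor depended on the test. Against vehicle 0 of 28 passed an adjusted p of 0.05 in limma, against 0.0955% of all tested intervals called higher and 0% lower. Unadjusted p was under 0.05 in 14 members and in 26.5% of all tested intervals. On recovered reads edgeR called 0 members (0.122% of all tested intervals higher) and DESeq2 called 3 (12.9% higher), with 0% lower in both. A limma fit on the 4 libraries compared called 14, where 23.3% of all tested intervals were called higher. The median log2 change was 0.41 in the members and 0.48 over all tested intervals. The Hist1h1d interval had 4677 and 3084 spike-scaled reads in vehicle and 6338 and 3847 in acetate (set 1, then set 2). The highest changes were all in flanks, at 1.17 ± 0.47 (SE) for a Hist1h1t flank (chr13:23690423-23691847), 0.71 ± 0.53 for a Hist1h4d flank (chr13:23592293-23593209) and 0.70 ± 0.45 for a Hist1h2bp flank (chr13:21792040-21793916). These flanks were weak, with means of 20.3, 12.8 and 22.9 spike-scaled reads over the 12 libraries. The lowest were 0.20 for a Hist1h2br flank (chr13:21855476-21855950), 0.26 for the interval downstream of Hist1h2ac and 0.32 for a Hist1h4d flank (chr13:23595748-23598073).

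With etomoxir present, the median acetate change was smaller in the histone intervals than over all tested intervals. Of 28 members 7 were called higher and 0 lower, against 56.4% of all tested intervals called higher. The median log2 change was 0.47 in members, 0.30 in the start-site intervals and 0.83 over all tested intervals. The median was 0.70 over the 6686 other tested intervals with a mean of at least 300. The Hist1h1d interval had 5051 and 5340 spike-scaled reads with etomoxir and 5581 and 6239 with acetate added, a change of 0.18 ± 0.17 (SE). The Hist1h2ab interval went from 2429 and 2529 to 2638 and 2975, also a change of 0.18. Both intervals were higher with acetate in both sets, and neither passed the test. Start-site intervals that did pass were those of Hist3h2a (0.58), Hist1h2ap (0.65), Hist1h4c (0.61) and Hist2h3c2 (0.38, limma adjusted p = 0.0468). The Hist1h2ap interval is among those with repeated sequence. The flanks that passed were those of Hist1h2bl (0.68), Hist1h4d (chr13:23595748-23598073, 1.15) and Hist1h1t (chr13:23690423-23691847, 1.15). The other Hist1h1t flank (chr13:23693124-23693969) had 1.04 and did not pass. The lowest were the Hist1h2be flank at chr13:23608704-23609588 (-0.05), the Hist1h2be interval (0.16) and the Hist1h2bm interval (0.17).

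With both inhibitors present, acetate was tested in the same way. Of 28 members 14 were called higher, against 27.4% of all tested intervals (0.00313% lower), and 13 of these 14 were start-site intervals. The start-site intervals not called were those of Hist1h2ao (0.35) and Hist1h4c (0.47). The median log2 change was 0.64 in members, 0.66 in start-site intervals, 0.62 over all tested intervals and 0.72 over the 6686 strong ones. The 2 sets disagreed, however. The Hist1h1d interval had 3764 spike-scaled reads with the inhibitors and 3947 with acetate in set 1, but 2618 and 6224 in set 2. The Hist1h2ab interval had 1758 and 1893 in set 1, and 1110 and 2892 in set 2. In set 1 both differed little with acetate, and in set 2 both were far higher with it. Without the acetate library of set 2 in this pair, the start-site median was 0.39, with 0.45 over all tested intervals. Without that of set 1 it was 0.94, with 0.79 over all. Without the etomoxir + SB204990 library of set 2, which stood apart in depth, the start-site median was 0.47, below the 0.96 over all. Without that of set 1 it was 0.84, above the 0.23 over all. Fitted on the 4 libraries compared alone, 0 members were called here and 23 with etomoxir, where 0% and 84.0% of all tested intervals were called higher. The highest changes were those of a Hist1h4j flank (chr13:21738859-21740331, 0.83), a Hist1h4d flank (chr13:23592293-23593209, 0.78) and the Hist1h2bl flank (0.76). The lowest were those of a Hist1h4m flank (chr13:21820128-21821951, 0.02), the Hist1h1t flank at chr13:23690423-23691847 (0.06) and the Hist1h4d flank at chr13:23595748-23598073 (0.19).

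Averaged over the 3 backgrounds, acetate raised 23 of 28 members and lowered 0, against 77.2% of all tested intervals called higher and 0.00156% lower, so the members' share of 82.1% was near the background. Of the 15 start-site intervals 14 were called, all but that of Hist1h2ao (0.35). The median log2 change was 0.45 in start-site intervals, 0.64 over all tested intervals and 0.62 over the 6686 strong ones. By set the start-site median was 0.28 in set 1, with 0.74 over all, and 0.61 in set 2, with 0.56 over all. Among intervals with linker genes, that of Hist1h1d changed by 0.41 ± 0.10 (SE) and that of Hist1h2ab, which holds Hist1h1a and Hist1h1c, by 0.43 ± 0.10. The Hist1h3i interval, which holds the linker gene Hist1h1b, changed by 0.41 ± 0.10, and the Hist1h2be interval, which holds Hist1h1e, by 0.41 ± 0.11. Among other start-site intervals the values were 0.42 for Hist1h2bm, 0.43 for Hist1h4k, 0.45 for Hist1h4i, 0.48 for Hist1h4j, 0.49 for Hist1h2bc, 0.46 for both Hist2h3c2 and Hist2h4, 0.56 for Hist3h2a, 0.61 for Hist1h2ap and 0.47 for Hist1h4c, which also holds the linker gene Hist1h1t. The 3 highest values were in flanks of Hist1h1t (0.79 and 0.74) and Hist1h2bp (0.69). Besides Hist1h2ao the lowest were a Hist1h4n flank (chr13:21825611-21826921, 0.40, not passing) and the interval downstream of Hist1h2ac (0.40). These changes include the shift shared by the genome. After median-of-ratios scaling, which takes out 0.63 of the average log2 change, 0 members were called, against 0.00156% of all tested intervals higher and 0% lower, and the start-site median was -0.20.

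Set by set, the median of the start-site intervals lay below the genome-wide acetate change in all pairs but that of set 2 with both inhibitors. Against vehicle their median log2 change was 0.43 in set 1 and 0.34 in set 2, with 0.57 and 0.39 over all tested intervals. With etomoxir it was 0.27 and 0.31, with 0.82 and 0.83 over all, and 15 of 15 lay below the median of all in both sets. With both inhibitors it was 0.17 in set 1, where 15 of 15 lay below the median of 0.79, and 1.09 in set 2, where 15 of 15 lay above the median of 0.41. These are values of single library pairs with no test.

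**Figure D4:**
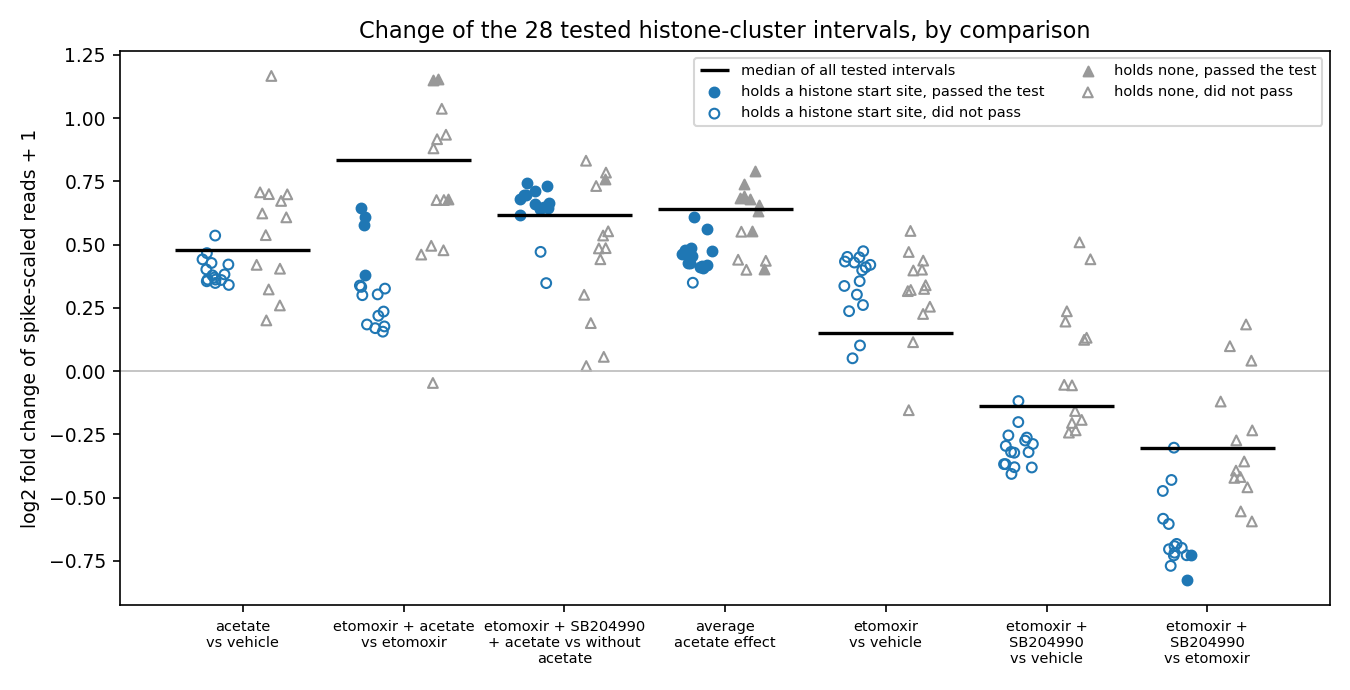
Log2 fold change (limma, spike-scaled reads + 1) of the 28 tested members in 7 comparisons, with circles for intervals that hold a histone start site, triangles for those that do not, filled symbols where the adjusted p was under 0.05, and a black line at the median of all 63903 tested intervals. The start-site intervals lie mostly below the line for etomoxir + acetate against etomoxir and for etomoxir + SB204990 against etomoxir.

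Without acetate, few members were called between the inhibitor groups. Etomoxir against vehicle gave 0 calls among 28 members, against 0.0563% of all tested intervals higher and 0.00626% lower. Unadjusted p was under 0.05 in 8 members, all with higher signal, and in 1.41% of all tested intervals. Members were called by neither edgeR (0, against 0.0532% of all higher and 0.00782% lower) nor DESeq2 (0, against 0.0673% and 0%). The median log2 difference was 0.40 in start-site intervals, 0.15 over all tested intervals and 0.13 over the 6686 strong ones. The highest were a Hist1h2br flank (chr13:21882160-21883158, 0.55), the Hist1h2bm interval (0.47) and the Hist1h2be flank at chr13:23608704-23609588 (0.47). The lowest were the Hist1h4c interval (0.10), the Hist1h2ap interval (0.05) and the Hist1h4d flank at chr13:23595748-23598073 (-0.15). Here too the sets differed, since the start-site median was 0.11 in set 1 with 0.34 over all, and 0.69 in set 2 with -0.05 over all.

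Adding SB204990 to etomoxir lowered 2 members, the Hist1h1d and Hist1h2ab intervals, against 0.0219% of all tested intervals called lower and 0.025% called higher. The Hist1h1d interval had 5051 and 5340 spike-scaled reads with etomoxir and 3764 and 2618 with both inhibitors, a log2 difference of -0.73 ± 0.17 (SE, limma adjusted p = 0.0427). The Hist1h2ab interval had 2429 and 2529 against 1758 and 1110, a difference of -0.83 ± 0.17 (limma adjusted p = 0.00878). In all 15 start-site intervals both values with both inhibitors lay below both etomoxir values, as they did in 19 of 28 members and in 32.8% of all tested intervals. The start-site median was -0.70, with -0.30 over all tested intervals and -0.41 over the 6686 strong ones. Against the genome the sets were opposite. The start-site median was -0.44 in set 1, less of a fall than the median of -0.68 over all, and -0.90 in set 2, where the median over all was 0.14. The count of calls also hung on single libraries, from 0 without any 1 of the etomoxir and etomoxir + acetate libraries (0% of all tested intervals called lower), through 1 without any 1 of the vehicle and acetate libraries (0.00156% to 0.00469%), to 12 without either library with both inhibitors and acetate (4.18% and 4.16%). Without the etomoxir + SB204990 library of set 2 it was 6, where 25.1% of all were called lower, so these members were near the background. Without that of set 1 it was 10, where 0.518% of all were. The 3 highest values, 0.18, 0.10 and 0.04, were flanks of Hist1h1t (chr13:23690423-23691847), Hist1h4d (chr13:23595748-23598073) and Hist1h4n (chr13:21825611-21826921). Besides Hist1h2ab, the lowest were the Hist1h2be interval (-0.77) and the Hist1h4j interval (-0.73), neither of which passed.

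Both inhibitors against vehicle gave 0 calls in limma, edgeR and DESeq2, against 0.0313% of all tested intervals higher and 0.0219% lower in limma, with unadjusted p under 0.05 in 3 members and in 5.06% of all tested intervals. The shares of all tested intervals were 0.0501% higher and 0.0297% lower in edgeR, and 0.0376% and 0.196% in DESeq2. The start-site median was -0.32, with -0.14 over all tested intervals and -0.29 over the 6686 strong ones. The Hist1h2ab interval was the lowest at -0.41, followed by those of Hist2h4 and Hist1h2ap at -0.38. The highest were flanks of Hist1h1t (chr13:23690423-23691847, 0.51), Hist1h4n (chr13:21825611-21826921, 0.44) and Hist1h2be (chr13:23608704-23609588, 0.24). Whether acetate acted differently with an inhibitor present was tested as an interaction. For etomoxir and for both inhibitors alike, 0 of 28 members were called, with 0% of all tested intervals called higher, 0% and 0.00156% called lower, and 0 members at an unadjusted p under 0.05, against 1.79% and 0.246% of all tested intervals. The medians over the members were 0.00 for etomoxir and 0.19 for both inhibitors, with 0.33 and 0.15 over all tested intervals. For both inhibitors the sets were opposite. The start-site median was -0.23 in set 1, with 0.20 over all, and 0.76 in set 2, with 0.04 over all. For etomoxir it was -0.21 and -0.05, with 0.24 and 0.42 over all. For etomoxir the values ran from -0.67 in the Hist1h2be flank at chr13:23608704-23609588 to 0.83 in the Hist1h4d flank at chr13:23595748-23598073. For both inhibitors they ran from -1.11 in the Hist1h1t flank at chr13:23690423-23691847 to 0.38 in the Hist1h2ab interval (-0.32 in set 1 and 1.08 in set 2). DESeq2 and edgeR called 0 members in both, against 0% of all tested intervals in either direction other than 0.00156% lower in edgeR for both inhibitors.

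The spread between libraries of the same treatment was itself ordered in these genes. On the log2 scale of read shares, set 1 exceeded set 2 by a median of 0.72 in vehicle, 0.55 in acetate and 0.75 in etomoxir + SB204990 over the 15 start-site intervals. The corresponding medians over all tested intervals were -0.11, -0.11 and -0.29. In these 3 treatments 12, 14 and 14 of the 15 start-site intervals lay above the 95th percentile of all tested intervals. In etomoxir, etomoxir + acetate and both inhibitors with acetate the medians were -0.11, -0.22 and -0.17, and 0 of 15 lay above it. The flanks did not share this, with medians of -0.07, -0.05 and -0.53 in the first 3 treatments. In those 3 treatments the start-site intervals thus differed between replicates in the same direction and by more than most tested intervals. Strong intervals elsewhere leaned the same way by less. For SB204990 added to etomoxir, medians without the etomoxir + SB204990 library of set 1 were -0.87 in start-site intervals, -0.28 over the 6686 strong ones and 0.09 over all. Without that of set 2 they were -0.48, -0.53 and -0.63.

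The same shares were high where the spike-in factor was low. In set 1 the start-site intervals took 0.240% of reads at a factor of 0.398 (etomoxir + SB204990), 0.239% at 0.467 (vehicle), 0.218% at 0.571 (etomoxir) and 0.220% at 0.604 (acetate). They took 0.168% at 0.647 (both inhibitors with acetate) and 0.150% at 1 (etomoxir + acetate). In set 2 the share was 0.236% at 0.573 (etomoxir), 0.153% at 0.792 (vehicle) and 0.146% at 0.861 (acetate). It was 0.191% at 0.867 (both inhibitors with acetate), 0.175% at 0.960 (etomoxir + acetate) and 0.133% at 1 (etomoxir + SB204990). In both sets the highest share was at the lowest factor and the lowest share at the factor of 1. The share of the 36 other members lay between 0.00665% and 0.00862% in all 12 libraries. The factor is set by the part of human reads in a library and multiplies every value, so its part in the members' changes was not tested.

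**Figure D5:**
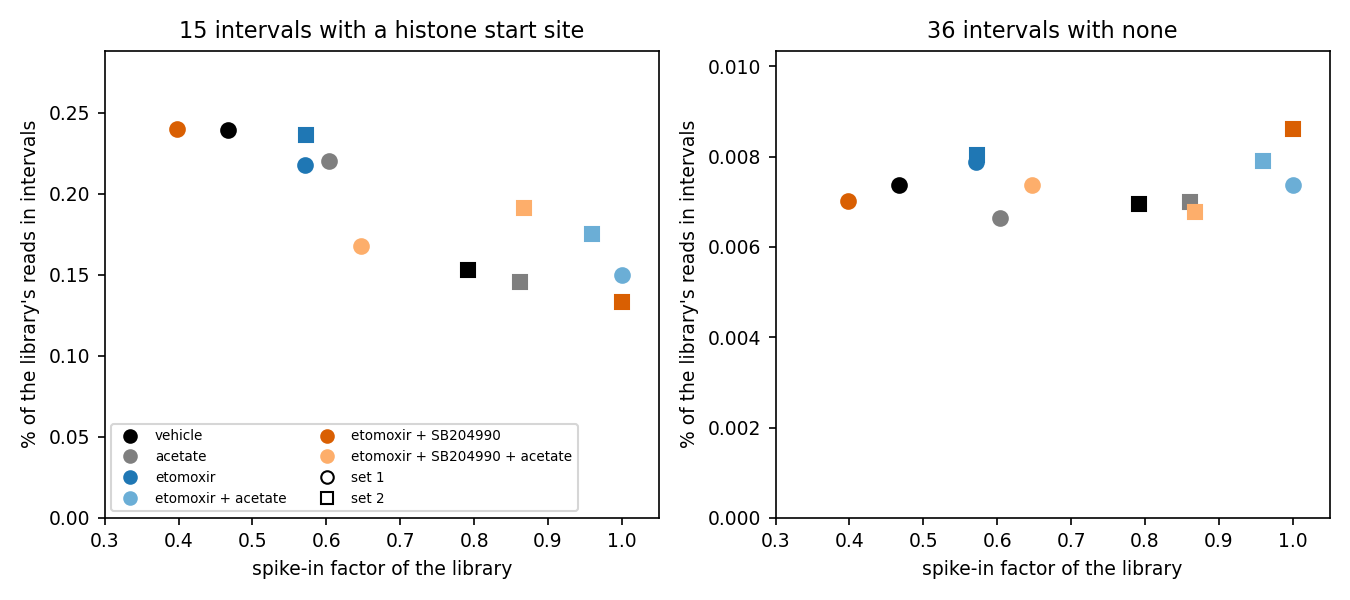
Percentage of a library's reads in intervals that fell in the 15 members with a histone start site (left) and in the 36 without (right), against the library's spike-in factor, with colours for treatments, circles for set 1 and squares for set 2. On the left the highest share is 0.240% at 0.398 and the lowest 0.133% at 1, and on the right it stays between 0.00665% and 0.00862%.

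Genes that serve the clusters were read from lists. Of 17 regulators of histone transcripts 16 had an interval, and acetate on average raised 32 of their 35 tested intervals and lowered 0, with a median log2 change of 0.64, against 77.2% of all tested intervals called higher. Slbp, which binds the stem-loop, changed by 0.62 ± 0.10 (SE), Hinfp, the activator of H4 genes, by 0.66 ± 0.12, and Casp8ap2, a part of the histone locus body, by 0.66 ± 0.13 in their strongest intervals. Variant histones expressed outside S phase had 24 of 27 intervals called higher with a median of 0.70, histone chaperones 31 of 34 with 0.70, and genes of DNA replication 26 of 33 with 0.62. After median-of-ratios scaling 0 intervals of these 4 lists were called. All 4 medians lay near the 0.64 of all tested intervals, where the start-site intervals had 0.45. With etomoxir present the 4 medians of the acetate change were 0.82, 0.89, 0.90 and 0.68, and that of the start-site intervals was 0.30. Against vehicle, etomoxir alone gave the lists medians of 0.15, 0.17, 0.23 and 0.27.

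Testis-specific genes had no interval or shared one. The nearest interval lay 89942 bp from Hist1h2aa and 90248 bp from Hist1h2ba. The Hist1h2ba promoter printed above holds a TATA box, the octamer and the NF-Y motif. The start of Hist1h1t, the testis linker histone, lay in the Hist1h4c interval (chr13:23694656-23701330), which also holds the start of Hist1h4c and averaged 163 spike-scaled reads. The 2 intervals named for Hist1h1t itself lay before that start, and the first is annotated as intron and lies within the Hist1h2bc gene. The first (chr13:23690423-23691847) had 10.8 and 11.9 in vehicle, 28.4 and 25.0 in acetate, and 10.3 and 20.0 in etomoxir. It had 35 and 31.7 in etomoxir + acetate, 10.4 and 26 in etomoxir + SB204990, and 20.1 and 14.7 with acetate. Acetate values were above those without it in 5 of 6 same-set pairs, and the pair of set 2 with both inhibitors went the other way. The average change was 0.79 ± 0.27 (SE, limma adjusted p = 0.00668), where 77.2% of all tested intervals were called higher. After median-of-ratios scaling 0 members were called.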

How the data were processed

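The authors aligned paired reads to mouse mm10 joined with human GRCh38 with the nf-core/chipseq workflow. They derived a factor per library from its percentage of human spike-in reads and divided it by the highest factor. The deposited signal is reads per interval multiplied by that factor, and in the 2 libraries with a factor of 1 the deposited values are counts. The factor does not take sequencing depth out of a value. Division by the smallest step gave whole reads for 100% of values within 0.001 reads, so reads were recovered for edgeR 4.0.16 and DESeq2 1.42.0. The main test was limma 3.58.1 (intensity trend, all 12 libraries, log2(value + 1), mean of at least 10), run after a test on simulated data, with Benjamini-Hochberg adjustment over the 63903 tested intervals. Libraries were grouped by the treatment in the labels. Whether intervals were called on pooled libraries is not given in the sources used here. Start sites came from the mouse GENCODE annotation of the same build. Members, gene lists and tests were chosen with earlier results of these data known. Named intervals are the 10 strongest of Hist1, all tested ones of Hist2 to Hist4, the 3 highest and 3 lowest changes per comparison, those of testis genes and those at the limit of 10. Alternatives were other scalings, filters, models, a block for the library set and leaving out each library.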

Additional observations from a re-analysis of the deposited data

How the results depend on the processing

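Counts of called members rest on the scaling. Median-of-ratios scaling, total-sum scaling and read shares multiplied by the factor each gave 0 calls for acetate with etomoxir (7 in the main test), acetate with both inhibitors (14), the average acetate effect (23) and SB204990 added to etomoxir (2). In these runs at most 0.0782% of all tested intervals were called higher and 0.0141% lower, both for the average under total-sum scaling. The average change of the Hist1 sum was 0.43 on the log2 scale, -0.23 after median-of-ratios scaling, -0.20 after total-sum scaling and 0.22 for shares multiplied by the factor. The median-of-ratios and total-sum values of the average acetate change were -0.25 and -0.22 for the Hist1h1d interval, -0.23 and -0.20 for Hist1h2ab, -0.24 and -0.21 for Hist1h3i, -0.20 and -0.17 for Hist1h4i, -0.24 and -0.21 for Hist1h2bm, -0.23 and -0.20 for Hist1h4k, -0.24 and -0.21 for Hist1h2be, -0.17 and -0.14 for Hist1h2bc, -0.18 and -0.15 for Hist1h4j, -0.25 and -0.22 for the interval downstream of Hist1h2ac, -0.094 and -0.065 for Hist3h2a, -0.20 and -0.17 for Hist2h3c2, and -0.19 and -0.16 for Hist2h4. With etomoxir they were -0.26 and -0.16 for Hist3h2a, and -0.46 and -0.36 for Hist2h3c2. With both inhibitors total-sum scaling gave -0.0071 for Hist1h1d, -0.022 for Hist1h3i, -0.019 for Hist1h2bm, -0.047 for Hist1h4k, -0.0010 for Hist1h2bc and -0.016 for Hist2h3c2, and median-of-ratios gave -0.0032 for Hist1h4k. The first and second of these scalings remove a shift shared by all intervals. Shares multiplied by the factor keep it, with a median of 0.44 over all tested intervals on average (0.64 in the main test), and the cause of their 0 calls was not tested.

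Fitting only the libraries compared gave 14 calls for acetate against vehicle (0 in the main test), 23 for acetate with etomoxir, 0 with both inhibitors, 2 for etomoxir against vehicle (0) and 10 for SB204990 added to etomoxir. The same fit called 23.3%, 84.0%, 0%, 0.196% and, as lower, 0.858% of all tested intervals. This fit could not be made for the average, which uses all libraries. DESeq2 called 3 for acetate against vehicle, 9 with both inhibitors, 15 on average and 6 for SB204990 added to etomoxir, where edgeR called 4. Of all tested intervals DESeq2 called 12.9%, 29.7%, 69.7% and, as lower, 6.22%, and edgeR 0.0391% as lower. Without a filter acetate with etomoxir had 3 (23.1% of all intervals) and SB204990 added to etomoxir 0 (0%), and with a mean of at least 50 the latter had 7 (0.203% lower). Without an intensity trend these were 2 (35.9%) and 0 (0%), and acetate with both inhibitors had 0 (0%). In the main test, with its shares of all intervals, members annotated as promoters alone had 1 call for acetate with etomoxir, 5 with both inhibitors, 5 on average and 1 for SB204990 added to etomoxir. Start-site intervals alone, a choice made after seeing the data, had 4 with etomoxir and 14 on average, out of fewer intervals. The cause of the other moves was not tested.

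The set numbers were not taken to pair the libraries, since the set differences of 15 pairs of treatments correlated between -0.15 and 0.35, with 3 over 0.1, those among vehicle, acetate and etomoxir + SB204990. Such a correlation cannot see an offset shared by all intervals of a set. It therefore does not decide whether the sets differ in scale. With the set as a block SB204990 added to etomoxir had 7 calls (0.0751% of all tested intervals lower), and the block moved no other count of members by more than 1.5 times. Over all tested intervals it moved the share called for acetate against vehicle from 0.0955% to 3.26% higher, and for both inhibitors against vehicle from 0.0219% to 0.0955% lower.

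Leaving out each library in turn gave 0 to 5 calls for acetate against vehicle (5 without either etomoxir + SB204990 library, where 21.0% and 21.2% of all intervals were called), 0 to 11 with etomoxir (0 or 1 without any library of that comparison, where 8.05% to 27.0% of all were called, and 76.8% beside the 11), 0 to 16 with both inhibitors (0 without the acetate library of set 2), 18 to 26 on average (58.2% to 94.8% of all) and 0 to 12 for SB204990 added to etomoxir (0% to 25.1% of all lower). The other 4 comparisons had 0 members throughout, while up to 3.92% of all intervals were called lower (both inhibitors against vehicle, without the etomoxir + SB204990 library of set 2) and up to 1.02% higher (without that of set 1). The Hist1 sum ran from 0.32 to 0.54. With 1 library left in a group it is assumed to vary like the others.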
